A study of Homo sapiens with 2 samples.

Results

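The genes described here are 10 negative-feedback regulators and output genes of the ERK pathway: the phosphatase genes DUSP1, DUSP4, DUSP5 and DUSP6, the Sprouty genes SPRY2 and SPRY4, the Spred genes SPRED1 and SPRED2, PHLDA1, and the transcription factor gene ETV4. They were taken by name, with earlier results of these data known, and all 10 were found, with 20 transcript records among the 56891 records of 26370 gene names in each library. RNA was sequenced from 2 cultures of CHME3, an immortalised human line whose labels name microglia, at passages 4 to 6. The treated culture had received muscarinic receptor antagonists, blockers of acetylcholine receptors, at 5 µg/ml, and the untreated culture had received none. The labels name no compound and no length of exposure, and give the dose as an EC50. There was 1 library per condition, so no difference has a replicate check, and every interval compares these 2 libraries, not the conditions.

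The RAS-RAF-MEK-ERK cascade carries signals from growth factor receptors, and from many G protein-coupled receptors, to the nucleus. Active ERK switches on genes whose products then restrain it: dual-specificity phosphatases remove phosphate from MAP kinases, while Sprouty and Spred proteins act upstream, on receptor signalling, RAS and RAF. Because ERK activity drives their transcription, the messenger RNAs of these genes are widely used as a readout of the pathway, and in microglia ERK signalling takes part in proliferation, survival and inflammatory responses.

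Depth was similar in both libraries, at an estimated 7296227 fragments in the treated and 6816767 in the untreated library. Genes at 1 FPKM or more numbered 11652 in the treated and 11637 in the untreated library. FPKM, the unit of all levels here, is fragments divided by transcript length and by sequencing depth, so levels can be compared between genes. Listed 18S ribosomal RNA (RNA18S5) differed between the libraries, at 759 FPKM in the treated and 363 FPKM in the untreated library, while 28S ribosomal RNA (RNA28S5) was at 504 FPKM in the treated and 456 FPKM in the untreated library. The part of either in the results was not tested. Of 15 microglia and macrophage markers, CD68 alone reached 1 FPKM in either library, and 9 were listed at 0 in both, among them AIF1, TMEM119 and CX3CR1. The summed level of these 15 markers was 12.7 FPKM in the treated and 16.1 FPKM in the untreated library. The 9 fibroblast and mesenchymal markers summed to 6391 FPKM in the treated and 5869 FPKM in the untreated library, and 7 of them reached 1 FPKM in each. Most of each sum came from FN1, at 3021 FPKM in the treated and 2725 FPKM in the untreated library, and VIM, at 2025 and 1967 FPKM. The collagen genes COL1A2 and COL3A1 were under 1 FPKM in both. Of the 7 markers that reached 1 FPKM, 5 had a 95% counting interval of the FPKM ratio, treated over untreated, above 1. These were FN1, COL1A1, COL5A1, TAGLN and TIMP1, with ratios of 1.11, 1.09, 1.08, 1.25 and 1.18. The share was 6.40% of all genes with a mean of 1 FPKM or more, which is not matched for depth. At high depth small differences leave 1: FN1 had 183583 fragments in the treated and 154551 in the untreated library. The data therefore go against the label as far as these markers reach, and the cells are called CHME3 throughout. The part of any difference in cell make-up in the results below was not tested.

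RNA of all 10 regulators was measured in both cultures, with every level above 3 FPKM, and none differed by 1.5-fold. The difference between libraries was taken as log2 of (treated FPKM + 1) over (untreated FPKM + 1), called the log2 ratio below, which understates differences at low levels. On this scale 3 of the 10 were higher and 7 lower in the treated library, with a median of −0.11 and a range of −0.26 to 0.13. The floor used throughout was a mean level of 1 FPKM, which all 10 regulators and 11668 genes in all passed. Among these genes the median was 0.00, the middle 95% lay between −0.40 and 0.44, and 49.3% were lower in the treated library. At least 1.5-fold differences occurred in 2.23% of these genes and at least 2-fold differences in 0.660%, against 0 of the 10 regulators at either size. Counting error was expressed as a 95% interval of the FPKM ratio, and the interval held 1 for every regulator. Over all genes above the floor, the interval lay wholly above 1 in 6.40% and wholly below 1 in 6.04%. Among the 6587 genes whose fragments, summed over both libraries, lay within the regulators' own range of 216 to 1703, these shares were 6.12% above and 5.33% below. A count of 0 among 10 genes is near these shares, and so says little about the regulators as a set. As RNA came from whole cultures, fewer cells of a kind and less RNA per cell cannot be told apart.

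**Figure D1:**
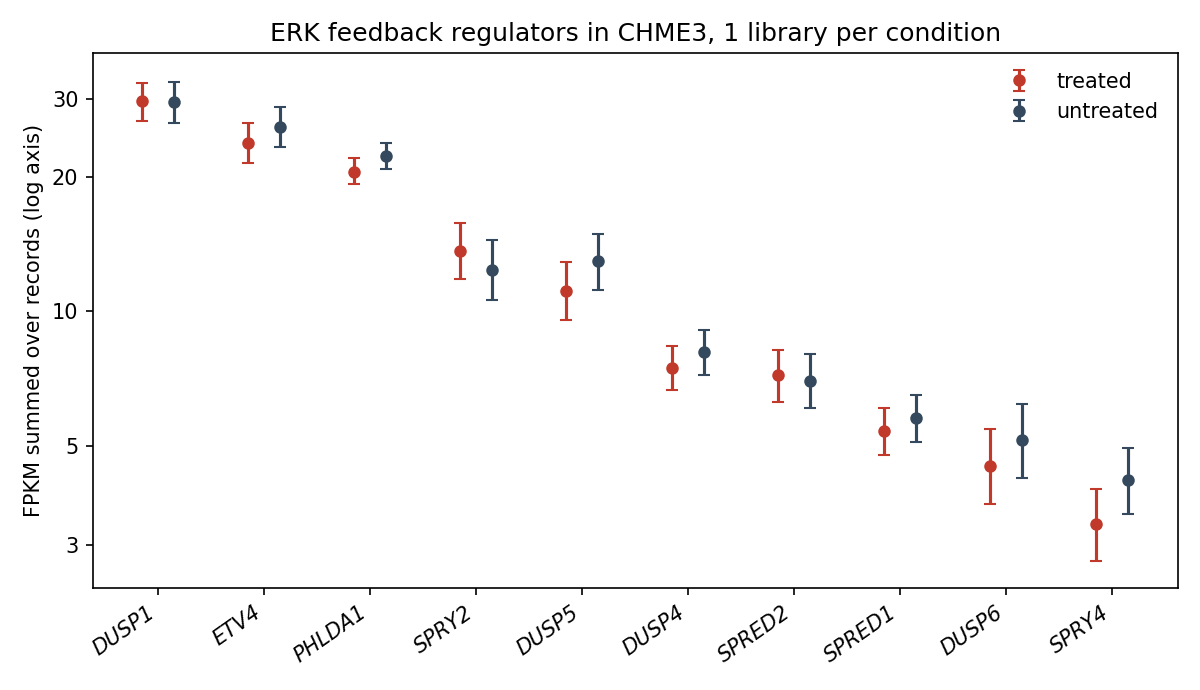
Level of each regulator in FPKM (log axis), ordered by the mean of both libraries, with the treated library left of the untreated one and 95% counting intervals as bars. Levels run from 29.6 FPKM for DUSP1 to 3.33 FPKM for SPRY4 in the treated library, and the 2 libraries' intervals overlap for every gene.

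The levels covered almost an order of magnitude, in nearly the same order in both libraries. In the treated library the order was DUSP1, ETV4, PHLDA1, SPRY2, DUSP5, DUSP4, SPRED2, SPRED1, DUSP6 and SPRY4. The untreated library had the same order apart from DUSP5, which stood above SPRY2 there. The intervals of neighbours in this order did not overlap between DUSP1 and ETV4, PHLDA1 and SPRY2, DUSP5 and DUSP4, and SPRED2 and SPRED1 in the treated library. In the untreated library they did not overlap between PHLDA1 and DUSP5 and between SPRY2 and DUSP4. The intervals of all other neighbours overlapped, which does not show that their levels were equal. DUSP1 was exceeded by 22.7% of genes above the floor in the treated and 23.0% in the untreated library, and SPRY4, at the other end, by 80.2% in the treated and 75.0% in the untreated library.

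DUSP1, a nuclear phosphatase gene, had the highest level of the 10. Its inducible product acts on p38 and JNK as well as ERK, and its messenger RNA is made rapidly after many stimuli and is short-lived. The gene lies on the minus strand at chr5:172768090-172771200 (hg38) and has 1 record, NM_004417. Its level was 29.6 FPKM from 398 estimated fragments in the treated library and 29.5 FPKM from 364 in the untreated library. These are all but equal levels: the log2 ratio was 0.00 and the FPKM ratio 1.0, with an interval of 0.868 to 1.16. Of all genes above the floor, 98.1% had a larger absolute log2 ratio than DUSP1.

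The DUSP1 promoter is shown because it holds a cyclic AMP response element, the kind of site that CREB binds. The sequence is RefSeq's, a window over the annotated start on the minus strand at chr5:172771146-172771445 (GRCh38.p14). Capitals mark the element TGACGTCA and its shorter core TGACG, or CGTCA where the core lies on the other strand.
DUSP1 promoter: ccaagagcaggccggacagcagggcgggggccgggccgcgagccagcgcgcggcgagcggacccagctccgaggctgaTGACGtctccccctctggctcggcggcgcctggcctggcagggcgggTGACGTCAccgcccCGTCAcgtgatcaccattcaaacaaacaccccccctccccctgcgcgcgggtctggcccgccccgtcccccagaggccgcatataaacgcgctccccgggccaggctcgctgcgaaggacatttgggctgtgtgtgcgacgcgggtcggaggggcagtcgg
Searched on both strands, the full element occurred in 1 of the 10 promoter windows available for 7 of the regulators, this one, in 1.85% of 35116 RefSeq promoters of the same length, and in 2.87% of the 12873 promoters of genes above the floor. The core, which the full element also contains, occurred in 4 of the 10 windows, of DUSP1, SPRED2, SPRY2 and SPRY4, in 24.6% of all promoters and in 32.5% of those of genes above the floor. The ETS letters CCGGAAGT occurred in none of the 10 windows, in 4.14% of all promoters and in 7.88% of those of genes above the floor. The CArG box of the serum response element, searched by name, occurred in none of the 10, in 1.29% of all promoters and in 1.12% of those of genes above the floor. Windows for DUSP4, DUSP5 and ETV4 were not used here. Some windows do not lie at the starts of the deposited records. By annotated start, those of SPRY2 lie 1292, 843 and 175 bases away and that of DUSP6 358 bases away. The SPRY4 window lies 170 bases from the start with the smaller part of its level, and none lies at its main start. A match is a description of letters, not evidence of binding.

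DUSP1 was also the regulator with the densest AU-rich sequence among these genes. AU-rich elements in the last part of a messenger RNA bind proteins of the ZFP36 and ELAVL families, which shorten or lengthen its life. The pentamer ATTTA occurred 4 times in the 672 bases after the DUSP1 stop codon in the matched GENCODE 29 transcript, a density of 5.95 per kilobase that exceeded 94.0% of 10135 matched genes above the floor. A longer form, TTATTTA followed by a pair of A or T bases, is a form described for destabilising elements, and is shown in capitals with 10 bases on either side.
DUSP1, first site: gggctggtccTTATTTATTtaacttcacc
DUSP1, second site: agaatataccTTATTTATTtttgtgtagg
PHLDA1: tgatttatgaTTATTTATTagtttttttt
SPRED1: cattttatttTTATTTAAActggccaaaa
A nonamer of this kind was present in 4 of the 10 regulators and in 19.6% of the 10135 genes. The site of DUSP4 is not printed here. These shares are not matched for length: the stretch searched had a median of 1628 bases in the regulators and 1092 in all matched genes. The median density of the pentamer was 1.70 per kilobase in the regulators and 1.66 in all matched genes. SPRED1 held 24 pentamers in 5585 bases and PHLDA1 held 14 in 4672 bases, whereas DUSP5 and ETV4 held 0. The stretch matched for ETV4 was only 182 bases long, and GENCODE's last exons can be shorter than those of the deposited records. The 4 regulators with a nonamer, DUSP1, DUSP4, SPRED1 and PHLDA1, had log2 ratios of 0.00, −0.10, −0.08 and −0.11, all within the range of the others.

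DUSP4 and DUSP5 are the other nuclear phosphatases. DUSP4, which acts on ERK, JNK and p38, lies on the minus strand at chr8:29333062-29350750. Its level was 7.47 FPKM from 298 fragments in the treated library and 8.11 FPKM from 300 in the untreated library. DUSP4 had a log2 ratio of −0.10 and its FPKM ratio was 0.922, with an interval of 0.783 to 1.09. Nearly all of the level came from NM_001394, which made up 97.9% of it in the treated and 99.3% in the untreated library. DUSP5 is selective for ERK and holds it in the nucleus. It lies on the plus strand at chr10:110497867-110511544, with 1 record, NM_004419. Its level was 11.1 FPKM from 185 fragments in the treated library and 13.0 FPKM from 203 in the untreated library. DUSP5 had a log2 ratio of −0.20 and its FPKM ratio was 0.858, with an interval of 0.699 to 1.05, and 23.2% of genes above the floor had a larger absolute log2 ratio. Both genes were thus lower in the treated library by less than counting error can resolve.

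DUSP6 is the cytoplasmic phosphatase that is selective for ERK, and its messenger RNA is among those most often read as a sign of ERK activity. It lies on the minus strand at chr12:89347825-89352859. Summed over its 2 records, its level was 4.51 FPKM from 106 fragments in the treated library and 5.14 FPKM from 110 in the untreated library. The log2 ratio was −0.16 and the FPKM ratio 0.878, with an interval of 0.666 to 1.16, so a difference of 1.5-fold downwards lies just inside what the counts allow.

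The records of DUSP6 differ by 1 exon. The 438-base exon at chr12:89350588-89351025 is present in NM_001946 and skipped in NM_022652. The junctions that tell them apart are printed as the coding strand, 20 bases on either side, with the bases that follow the junction in capitals.
NM_001946, exon kept: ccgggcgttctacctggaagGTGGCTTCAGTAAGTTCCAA
NM_022652, exon skipped: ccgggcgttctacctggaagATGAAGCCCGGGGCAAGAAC
NM_001946 was at 4.51 FPKM in the treated library, with authors' bounds of 3.61 to 5.42, and at 4.30 FPKM in the untreated library, with bounds of 3.32 to 5.27. NM_022652 was at 1.44e-05 FPKM in the treated library, with bounds of 0 to 0.0986, and at 0.843 FPKM in the untreated library, with bounds of 0.259 to 1.43. The long record was thus level between the libraries, and the whole of the lower DUSP6 sum in the treated library was in the record that skips the exon. Its share of DUSP6 was 0.000319% in the treated and 16.4% in the untreated library, where it rested on an estimated 16 fragments. Such shares come from the authors' assignment of fragments to overlapping records, and the error of that step was not tested. With only the most abundant record of each gene, the log2 ratio of DUSP6 turned to 0.06.

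**Figure D2:**
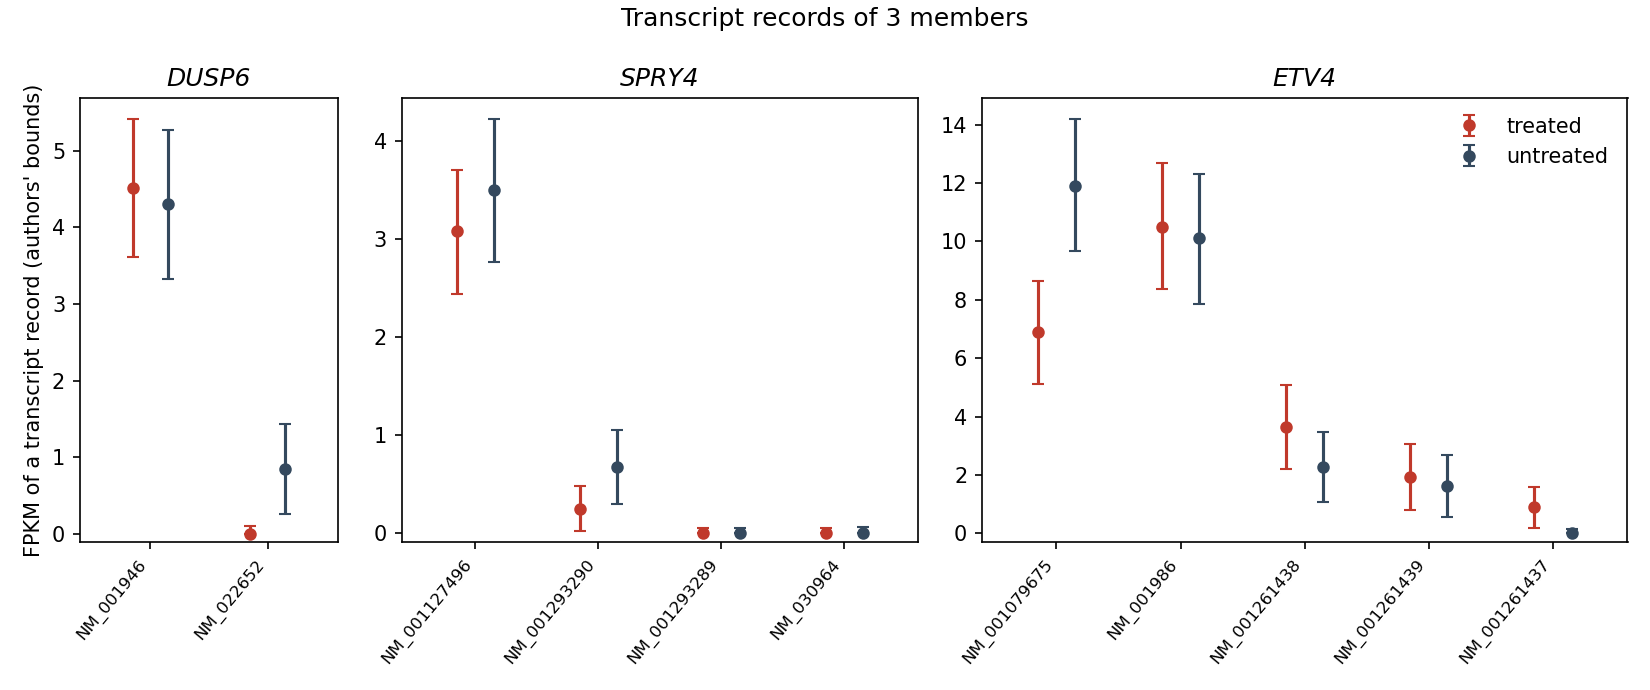
FPKM of each transcript record of DUSP6, SPRY4 and ETV4, with the treated library left of the untreated one and the authors' lower and upper bounds as bars. The bounds of the 2 libraries do not meet for NM_022652 of DUSP6 and for NM_001079675 and NM_001261437 of ETV4.

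The Sprouty proteins are induced by growth factors and hold back signalling from receptor tyrosine kinases to RAS. SPRY2 lies on the minus strand at chr13:80335977-80340951 and has 1 record, NM_005842. Its level was 13.7 FPKM from 188 fragments in the treated library and 12.4 FPKM from 163 in the untreated library. SPRY2 had the highest log2 ratio of the 10 genes, 0.13, and its FPKM ratio was 1.10 with an interval of 0.888 to 1.37. Its paralogue SPRY4 was at the other end of the range. SPRY4 lies on the minus strand at chr5:142310427-142325055 and had 3.33 FPKM from 116 fragments in the treated library and 4.18 FPKM from 137 in the untreated library. The log2 ratio was −0.26 and the FPKM ratio 0.798, with an interval of 0.618 to 1.03, and 15.7% of genes above the floor had a larger absolute log2 ratio. The ratio intervals of SPRY2 and SPRY4 overlap each other, and the difference between the paralogues was not tested.

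SPRY4 has 2 annotated starts. Records from the upstream start, at base 142325055, were at 3.08 FPKM in the treated and 3.50 FPKM in the untreated library. They made up 92.4% of the gene in the treated and 83.8% in the untreated library. Those from the start at base 142324417 were at 0.254 FPKM from 9 fragments in the treated library and 0.675 FPKM from 23 in the untreated library. No SPRY4 record had bounds that stood apart between the libraries. SPRY4-IT1, a noncoding gene that shares 689 bases and the strand with SPRY4, was listed at 0 in both libraries.

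The Spred proteins bind neurofibromin and block the activation of RAF by RAS. SPRED1 lies on the plus strand at chr15:38252851-38357249 and has 1 record, NM_152594. Its level was 5.40 FPKM from 273 fragments in the treated library and 5.76 FPKM from 271 in the untreated library. SPRED1 had a log2 ratio of −0.08 and its FPKM ratio was 0.937, with an interval of 0.789 to 1.11. SPRED2 lies on the minus strand at chr2:65310851-65432522 and had 7.19 FPKM from 224 fragments in the treated library and 6.99 FPKM from 203 in the untreated library. The log2 ratio was 0.04 and the FPKM ratio 1.03, with an interval of 0.847 to 1.25, so neither Spred gene differed beyond counting error.

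SPRED2 has 2 annotated starts far apart, and the records placed all but a trace of its RNA at the upstream one. Records from base 65432522 were at 7.19 FPKM in the treated and 6.99 FPKM in the untreated library, and those from base 65366797 were at 0.000339 FPKM in the treated and 0.000488 FPKM in the untreated library. RefSeq promoters near both starts are printed to set the one in use beside the one at a trace level. The upstream window, at chr2:65432550-65432849 on the minus strand (GRCh38.p14), lies 77 bases from the files' start by its own annotated start, and the downstream window, at chr2:65366729-65367028, lies 19 bases from it. Capitals mark the core CGTCA in the upstream window and the AP-1 letters TGANTCA, which read as TGACTCA and TGAATCA, in the downstream one.
SPRED2, upstream start: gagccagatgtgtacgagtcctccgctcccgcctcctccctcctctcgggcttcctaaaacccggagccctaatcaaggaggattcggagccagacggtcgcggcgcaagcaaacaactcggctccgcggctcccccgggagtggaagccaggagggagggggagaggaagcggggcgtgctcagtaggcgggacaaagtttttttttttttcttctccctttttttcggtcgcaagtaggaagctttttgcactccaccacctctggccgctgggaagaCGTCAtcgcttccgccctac
SPRED2, downstream start: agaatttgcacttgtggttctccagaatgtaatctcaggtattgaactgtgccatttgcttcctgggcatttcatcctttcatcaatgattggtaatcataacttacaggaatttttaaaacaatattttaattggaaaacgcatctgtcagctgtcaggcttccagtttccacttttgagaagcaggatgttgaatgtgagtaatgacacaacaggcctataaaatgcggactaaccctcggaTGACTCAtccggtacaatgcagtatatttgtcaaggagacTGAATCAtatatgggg
The window at the start in use was 60.0% G and C, and the one at the trace start 39.3%. AP-1 letters occurred in this 1 of the 10 regulator windows, in 7.71% of all promoters and in 4.79% of those of genes above the floor.

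PHLDA1 encodes a pleckstrin homology-like protein whose gene is induced by growth factors through ERK and which restrains receptor tyrosine kinase signalling. It lies on the minus strand at chr12:76025447-76031776 and had the most fragments of the 10 genes. Its level was 20.6 FPKM from 847 fragments in the treated library and 22.3 FPKM from 856 in the untreated library. The log2 ratio was −0.11 and the FPKM ratio 0.923, and the interval of 0.839 to 1.02 was the narrowest of the 10. PHLDA1 thus gives the closest bound on a difference among the regulators, and that bound includes equal levels.

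ETV4 encodes a PEA3 family ETS transcription factor, an output of ERK signalling rather than an inhibitor of it. It lies on the minus strand at chr17:43527843-43546432. Summed over 5 records, its level was 23.9 FPKM from 358 fragments in the treated library and 25.9 FPKM from 370 in the untreated library. The log2 ratio was −0.11 and the FPKM ratio 0.921, with an interval of 0.794 to 1.07. In GENCODE 29 the DHX8 gene on the opposite strand covers all 18590 bases of ETV4. That overlap is of whole gene spans, introns included, and overlap of exons was not computed. No deposited record of another gene overlaps ETV4. Strandedness is not given in the sources used here, so fragments from any shared exon bases might not be told apart by strand. The same holds for antisense genes annotated over DUSP1, DUSP6 and PHLDA1.

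The records of ETV4 differed more between the libraries than their sum. NM_001079675, which begins at base 43546432, was at 6.89 FPKM in the treated library, with authors' bounds of 5.13 to 8.64, and at 11.9 FPKM in the untreated library, with bounds of 9.67 to 14.2. NM_001986, which begins downstream at base 43545937, was at 10.5 FPKM, bounds 8.38 to 12.7, in the treated library and at 10.1 FPKM, bounds 7.86 to 12.3, in the untreated library. The upstream record was thus lower in the treated library with bounds that did not meet, and the downstream record was not. Summed by start, records from the upstream start made up 32.5% of ETV4 in the treated and 46.0% in the untreated library, and those from the downstream start 59.3% in the treated and 47.7% in the untreated library. The 111-base exon at chr17:43545558-43545668, which only some records hold, was in records making up 72.9% of ETV4 in the treated and 84.9% in the untreated library. With only the record of the highest mean over both libraries, NM_001986, the log2 ratio of ETV4 turned to 0.06. In the untreated library alone, NM_001079675 had the higher level, so this turn rests on the choice of record.

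Such shifts between records were common across the genome. Of 25277 records in genes with several records above the floor, 15.2% had authors' bounds that did not meet between the libraries, and so did 3 of the 15 such records of the regulators, 1 of DUSP6 and 2 of ETV4. The largest shift of a record's share was 17.2 percentage points in ETV4, 16.4 in DUSP6, 8.6 in SPRY4, 1.5 in DUSP4 and 0.0 in SPRED2. Over 6675 genes with several records, 37.9% had a shift of at least 10 points, a size chosen after the values were seen, against 2 of these 5 regulators. Larger shifts than that of ETV4 occurred in 22.5% of those genes and larger shifts than that of DUSP6 in 23.7%. The shares of the regulators are thus near this background. It is not matched for depth, and shares in genes with few fragments can shift by counting error alone. Whether a start or exon choice of a regulator stands apart from genes of like depth was not tested.

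**Figure D3:**
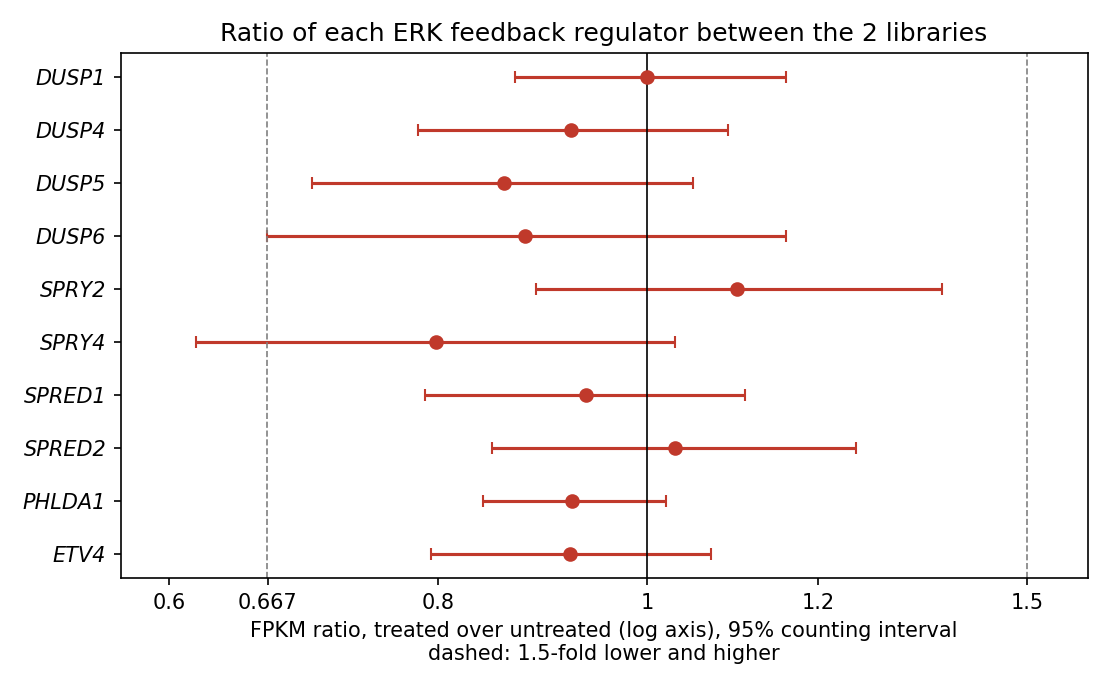
FPKM ratio of each regulator, treated over untreated (log axis), with its 95% counting interval, and dashed lines at 1.5-fold lower and higher. Every interval holds 1, from 0.618 to 1.03 for SPRY4 up to 0.888 to 1.37 for SPRY2.

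The remaining relatives of these genes gave the same picture of small differences. Of the 6 other MAP kinase phosphatase genes, 5 were above the floor, 2 higher and 3 lower in the treated library, with a median log2 ratio of −0.19 and no interval apart from 1. DUSP16, a phosphatase for JNK and p38, was at 5.56 FPKM in the treated and 6.46 FPKM in the untreated library, and DUSP7, for ERK, at 9.08 FPKM in the treated and 9.05 FPKM in the untreated library. DUSP8, DUSP9 and DUSP10 had log2 ratios of 0.08, −0.25 and −0.20, and DUSP2 was listed at 0 in both. SPRY1, SPRY3 and SPRED3 were all under the floor, at 0.378, 0.0332 and 0.646 FPKM in the treated library and 0.545, 0.0493 and 0.809 FPKM in the untreated library. SPRY2, SPRY4, SPRED1 and SPRED2 were therefore the members of their families with a level above the floor.

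The other PEA3 genes above the floor were ETV5 and ETV1. ETV5 was at 15.7 FPKM in the treated and 18.1 FPKM in the untreated library, with a log2 ratio of −0.19. Its FPKM ratio of 0.867 had an interval of 0.760 to 0.988, which lies below 1. Among the relatives of the regulators above the floor that is 1 of 9, beside 6.04% of all genes above the floor. ETV1 was at 2.75 FPKM in the treated and 3.13 FPKM in the untreated library, a log2 ratio of −0.14, and its interval of 0.685 to 1.12 held 1. The PHLDA1 paralogues PHLDA2, at 50.6 FPKM in the treated and 48.9 FPKM in the untreated library, and PHLDA3, at 26.0 FPKM in the treated and 25.6 FPKM in the untreated library, had log2 ratios of 0.05 and 0.02.

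Other genes induced through ERK were set beside the regulators, since both groups answer to the same kinase. Of 18 such genes, 13 were above the floor, 12 of them lower and 1 higher in the treated library, with a median log2 ratio of −0.14 against −0.11 for the regulators. The interval lay below 1 for 7 of these 13, against 7.29% of the 6105 genes whose summed fragments lay in the same range of 357 to 4779. The 7 were CCND1, EPHA2, IER3, MYC, FOSL1, FOS and SLC20A1. FOS, a subunit of AP-1, was the only one past 1.5-fold, at 9.62 FPKM in the treated and 16.8 FPKM in the untreated library, an FPKM ratio of 0.572 with an interval of 0.459 to 0.711. The list was drawn up with earlier results known, the FOS difference among them, so its count is a description and no independent evidence of a direction. Without FOS, the interval lay below 1 for 6 of 12. Whether these genes differ from the 10 regulators, none of which had an interval apart from 1, was not tested. The groups also differ in depth, with 357 to 4779 summed fragments in these genes and 216 to 1703 in the regulators. At greater depth smaller differences leave 1, so the counts of intervals are not alike.

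**Figure D4:**
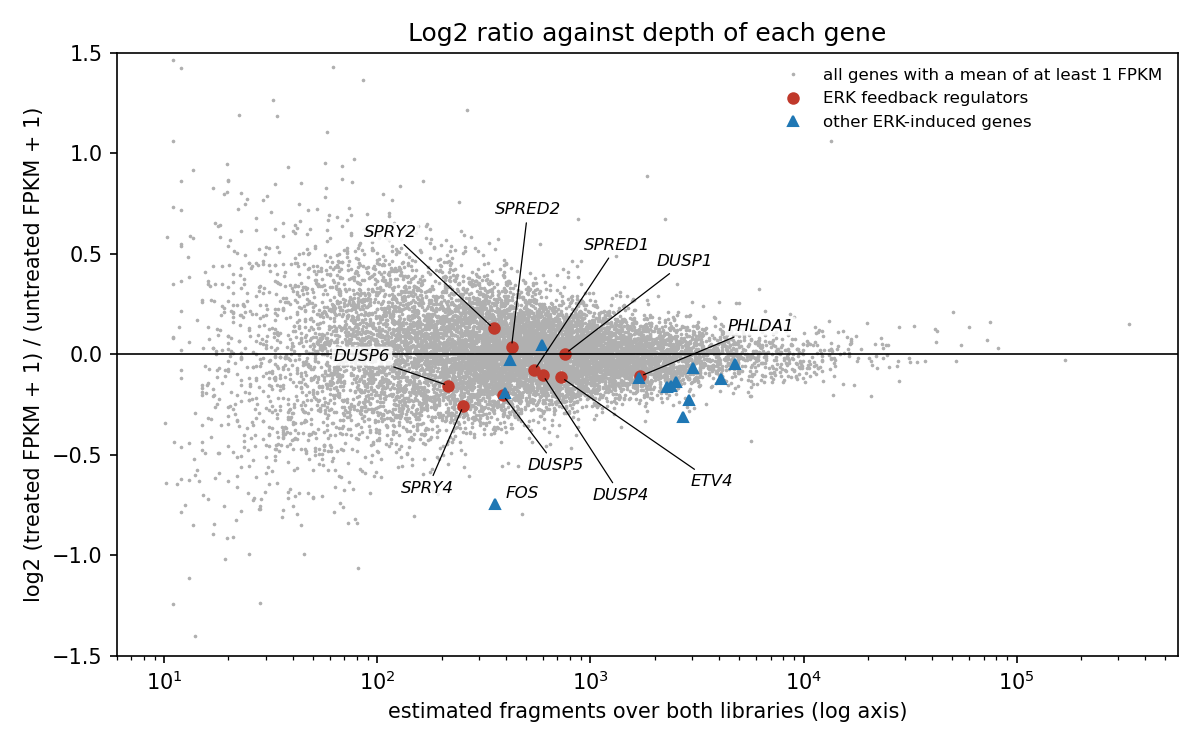
Log2 ratio, treated over untreated, against estimated fragments summed over both libraries (log axis) for genes above the floor, with the 10 regulators as circles and 13 other ERK-induced genes as triangles; 138 genes with under 10 fragments or beyond 1.5 on either side are not drawn. The regulators lie inside the spread of genes of like depth and FOS lies below it, at −0.75.

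No gene above the floor in the RAS-ERK cascade, the other negative regulators or the ERK effectors differed by 1.5-fold. In the RAS-ERK cascade 22 of 23 genes were above the floor, 7 higher and 15 lower in the treated library, with a median of −0.09. The interval lay below 1 for 3 of these genes, beside 6.04% of all genes above the floor. The 3 were SHC1, GRB2 and FRS2, adaptors that link receptors to RAS. Shares over all genes, here and for the lists that follow, are not matched for depth, and at high depth small differences leave 1. SHC1 was at 114 FPKM in the treated and 131 FPKM in the untreated library, and FRS2 at 4.47 FPKM in the treated and 5.44 FPKM in the untreated library. BRAF and LAMTOR3 had log2 ratios of −0.27 and −0.17 with intervals that held 1. Of 14 other negative regulators of receptors, RAS and RAF, 13 were above the floor, 2 higher and 11 lower with a median of −0.07. The interval lay below 1 for 2 of these 13, beside the same 6.04%: RASA2, a GTPase-activating protein for RAS, and CBL, a ubiquitin ligase for receptors, with ratios of 0.808 and 0.876. ERRFI1 and RASA1 had log2 ratios of −0.26 and −0.10 with intervals that held 1.

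The 13 ERK effectors split 6 higher and 7 lower, with a median of −0.03. The kinases RPS6KA1 and RPS6KA2, which ERK activates directly, and the transcription factor ETS1 had intervals above 1, which is 3 of 13 beside 6.40% of all genes above the floor. RPS6KA1 was at 23.5 FPKM in the treated and 20.3 FPKM in the untreated library, a ratio of 1.16 with an interval of 1.02 to 1.32. RPS6KA2 was at 5.99 FPKM in the treated and 4.43 FPKM in the untreated library, a ratio of 1.35 with an interval of 1.11 to 1.65. MKNK1 and ERF had log2 ratios of −0.26 and −0.14. The 10 JNK and p38 pathway genes above the floor, from the cascades on which DUSP1 also acts, had a median of 0.04, with 6 higher and 4 lower. MAP2K6 was higher, at 1.91 FPKM from 23 fragments in the treated and 0.779 FPKM from 9 in the untreated library. Its interval was 1.09 to 6.01, and it alone of the 10 was past 1.5-fold. MAP2K3 was lower with a log2 ratio of −0.28 and an interval of 0.712 to 0.935. That is 1 of 10 above and 1 of 10 below 1, beside 6.40% and 6.04% of all genes above the floor. MAPK11 and MAPK12 had log2 ratios of 0.26 and 0.15. The 7 proteins that bind AU-rich elements had a median of −0.08. ZFP36L1 alone had an interval below 1, at a ratio of 0.867, which is 1 of 7 beside 6.04% of all genes above the floor. ZFP36, ZFP36L2 and TIA1 had log2 ratios of −0.11, −0.15 and 0.12. The 12 receptor tyrosine kinases above the floor had a median of −0.02 and no interval apart from 1, with FGFR3, INSR, IGF1R and FGFR1 at −0.18, −0.16, −0.15 and −0.10.

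**Figure D5:**
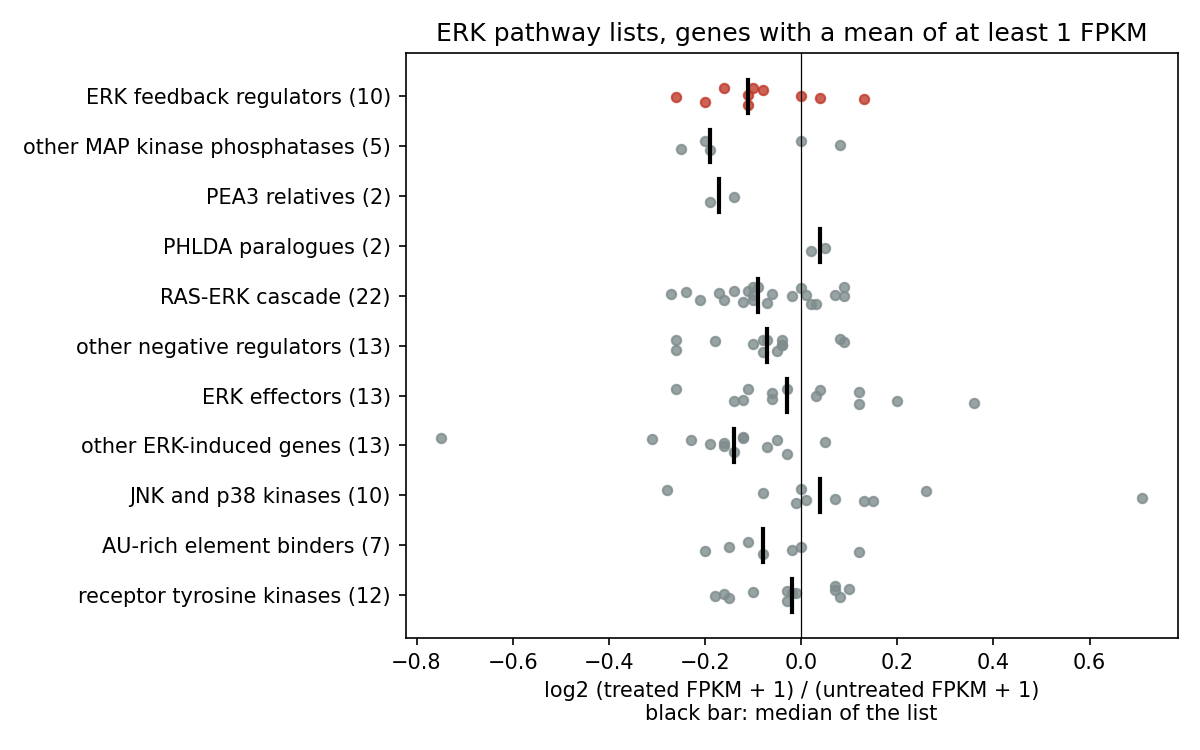
Log2 ratio, treated over untreated, of each gene above the floor in the ERK feedback regulators (top) and the related lists, with the number of genes in brackets and the median as a black bar. The regulators' median is −0.11, list medians run from −0.19 for the other MAP kinase phosphatases to 0.04 for the JNK and p38 kinases, and FOS at −0.75 and MAP2K6 at 0.71 stand farthest out.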

How the data were processed

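RNA of 1 treated and 1 untreated CHME3 culture was measured, and the treatment label set the groups. TopHat, Cuffdiff and hg38 are named in the submitters' processing notes, and versions are not given in the sources used here. Per the file contents, each line names Cufflinks and a RefSeq transcript record. The authors deposited FPKM per record, a unit other than counts, with lower and upper bounds. They also deposited a score per record, which was not used.

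FPKM was summed over the records of a gene. The log2 ratio used a pseudocount of 1 FPKM and a floor of a mean of at least 1 FPKM. For a gene with 1 record, fragments were computed by dividing 2 × FPKM by the gap between FPKM and its deposited upper bound and squaring the quotient. For other genes they were estimated from FPKM, length and depth. Of values with at least 3 fragments, 21.3% of 5992 treated and 21.1% of 5931 untreated ones were whole within 0.01, so they are estimates. Where both numbers could be had, their median quotient was 1.01 in each library. Intervals are 95% exact conditional binomial intervals on fragments and cover counting error only. They leave out the division of fragments between records and PCR duplicates. No test of the conditions was possible with 1 library each, so folds and intervals are rules of size.

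Records, exons and coordinates are those of the files. Sequences came from RefSeq promoters (GRCh38.p14) and GENCODE 29 transcripts matched to the records, and the search for AU-rich letters was added after the files had been examined. The members and the gene lists were chosen with earlier results of these data known. Genes named from a list are up to 4 above the floor, ranked by absolute log2 ratio, all close relatives of the members, and others whose interval lay apart from 1, chosen after their values were seen. Protein sequences were not used here. The ratio interval and the fold rule were tested on simulated data that held counting error only. The formula for fragments was only run on bounds built with the same formula, a check that could not fail. It does not show that the deposited bounds follow that formula. The other steps, such as record shares and sequence searches, were not tested. Calculations used Python 3.11.15, NumPy 2.4.6, pandas 2.3.3 and SciPy 1.17.1.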

Additional observations from a re-analysis of the deposited data

How the results depend on the processing

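The settings tried were pseudocounts of 0.1, 0.5 and 5 FPKM, no floor and a floor of 5 FPKM, 3 rescalings, the most abundant record of each gene, fragments in place of FPKM, 99% intervals, the authors' own bounds, and, added after the data were seen, fragments estimated from length and depth for every gene. Over 10 of these the regulators' median log2 ratio ran from −0.12 to −0.04, and over 8 of them single regulators ran from −0.33 to 0.14. The count past 1.5-fold or 2-fold and the count of intervals apart from 1 were 0 under every setting that gives them. The median over all genes moved by at most 0.01. Directions turned for DUSP6 and ETV4, both to 0.06, with the most abundant record alone, where 5 of the 10 in place of 7 were lower. That record was picked by its mean over both libraries. For ETV4 this left out NM_001079675, at 6.89 FPKM in the treated and 11.9 FPKM in the untreated library, so the counts of 0 do not cover it. Depth limits the regulators with few fragments: the interval of DUSP6, on 106 treated and 110 untreated fragments, still holds a ratio of 0.666, and that of SPRY4, on 116 treated and 137 untreated fragments, one of 0.618. No paired analysis was possible because each group has 1 library.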
